A study of Mus musculus with 12 samples.

Results

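The genes described here are 28 mouse genes of cholesterol synthesis, cholesterol handling and the SREBP2 system that controls them and they were picked as a list of names. The list was chosen with earlier results of these data known. Its shares of called genes, set below beside those of all tested genes, are therefore not those of an unselected list. Of the 28, 26 had a probe set annotated to that gene only, out of 18820 such genes on the array, and all 26 passed the filter on low values that left 17052 genes. Acat2, the cytosolic acetoacetyl-CoA thiolase at the head of the pathway, and Soat2, which esterifies cholesterol in hepatocytes, had no such probe set and have no values here, though the promoter of Acat2 is counted below. RNA from 12 liver samples was measured on Affymetrix Mouse Gene 1.1 ST arrays, 2 arrays in each of 6 groups. The mice were females of the BALB/cByJ strain, 2.5 months old, and either lacked Pml (Pml KO) or carried it (Pml wt). Pml encodes the scaffold of the nuclear bodies that bear its name. Each genotype was sampled untreated, or 2 h or 6 h after acetaminophen (APAP) at 300 mg/kg, dissolved in warmed PBS and injected into the peritoneal cavity. APAP is a painkiller that hepatocytes turn into a reactive, glutathione-consuming product at high dose. The untreated mice were killed without a stated injection, so a difference from untreated holds the drug, the injection and the passage of time together, and these cannot be told apart. Which part of Pml is deleted, whether the KO and wt mice were littermates and whether each array had its own animal was stated nowhere in the labels. The p-values therefore measure how far these samples spread, which may in part be technical.

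Cholesterol is built from acetyl-CoA through mevalonate, the isoprenoid diphosphates, squalene and lanosterol, and the liver is one of its main sites of synthesis. SREBP2, encoded by Srebf2, is the transcription factor that turns on most genes of the route. When sterols in the endoplasmic reticulum are plentiful, the INSIG proteins hold the SREBP2 precursor and its escort SCAP there. When sterols are scarce, SCAP carries the precursor to the Golgi, where proteases free its DNA-binding part. Insig1 is itself a target of SREBP2, whereas in rodent liver a transcript of Insig2 is known to fall with insulin.

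Values below are log2 of the deposited intensity unless a difference or a fold is named, and they are not compared between genes, since each probe set has its own brightness. A gene was called when its adjusted p in limma was under 0.05 over all 17052 genes tested. Array medians of the intensity lay between 79.9 and 90.1. Log2 values correlated across genes at 0.985 to 0.9934 within groups and at 0.9154 to 0.9922 between groups. Pml itself read 7.10 and 7.97 in KO liver untreated, 7.11 and 7.50 after 2 h and 7.09 and 7.16 after 6 h. Wt arrays read 8.18 and 8.46 untreated, 7.82 and 7.92 after 2 h and 7.87 and 7.88 after 6 h. KO arrays lay below wt arrays in each condition. Untreated KO replicate 2, at 7.97, lay above all wt arrays at 2 h and 6 h. The mean difference between KO and wt over the 3 conditions was -0.70 ± 0.14 (adjusted p = 0.035). In limma Pml was not called in any single condition (adjusted p = 0.9999 untreated, 0.184 at 2 h and 0.0715 at 6 h). Whether the Pml probes lie inside the deleted part is unknown here. The 7 hepatocyte markers on the array (Alb, Ttr, Apoa1, Apob, Tat, Hnf4a and Fgb) averaged 12.5 to 12.9 on every array. Fewer cells of a type and less RNA per cell cannot be told apart in whole liver.

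The replicates of untreated KO liver and of KO liver at 2 h stood further apart in these 26 genes than those of the other 4 groups. In untreated KO liver replicate 2 read higher than replicate 1 in 24 of 26 genes, by a median of 0.33. In KO liver at 2 h replicate 2 read lower than replicate 1 in 22 of 26, and the median difference was -0.45. Over all tested genes the median absolute difference between replicates was 0.115 in untreated KO liver and 0.156 in KO liver at 2 h. The 26 genes differed by a median of 0.108 in absolute terms between the untreated wt arrays. Where leaving out 1 array ended a call of a member against untreated, the array is named beside the gene. For the other comparisons the effect is given mostly as counts of calls. Genes outside the 26 were not put through this check, so their calls are not shown to be stable.

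Promoter sequence of the members was available for 23 genes in RefSeq's mouse assembly GRCm38.p6, as 29 windows, and the 250 bases before each start were searched on both strands. The 9-letter sterol regulatory element core TCACNCCAC was found in 1 of the 29 windows, that of Hmgcs1, and in 1.05% of all windows. Its 7-letter inner part CACNCCA, which overlaps it, was found in 7 of the 29 windows and in 15.6% of all windows. Those 7 windows belong to 6 members, Acat2 among them. CCAAT, the letters bound by NF-Y, stood in 20 of the 29 windows and in 33.8% of all windows. GGGCGG, the letters of the SP1 box, stood in 21 of the 29 and in 32.7% of all windows, or 48.2% of the windows of tested genes. The member windows also held more G and C, at a median of 62.4% against 57.6% in windows of tested genes. A match is a run of letters and not a measured binding site. The windows of 4 members are shown in full. These members were picked for holding CACNCCA, in order of p in wt liver at 2 h against untreated in limma. Idi1 and Cyp51 held no match to CACNCCA. Msmo1 and Insig1 had a called difference between KO and wt liver in the step between 2 h and 6 h, a call that single arrays could end. Insig2 was called higher at 2 h in both genotypes, and Srebf2 encodes the regulator. Of the 3 windows of Insig2, 2 hold CACNCCA, and the one farther upstream is shown. Capitals mark CACNCCA, or its reverse complement in Insig1. For Hmgcs1 only 100 bases are given, picked after the search, with the 9-letter match in capitals.
Msmo1 (chr8:64733579-64733828, minus strand): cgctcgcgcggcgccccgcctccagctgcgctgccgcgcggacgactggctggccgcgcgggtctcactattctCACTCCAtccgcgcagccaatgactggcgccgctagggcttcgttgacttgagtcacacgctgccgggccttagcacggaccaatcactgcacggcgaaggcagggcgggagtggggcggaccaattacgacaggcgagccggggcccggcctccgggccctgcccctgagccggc
Insig1 (chr5:28071162-28071411, plus strand): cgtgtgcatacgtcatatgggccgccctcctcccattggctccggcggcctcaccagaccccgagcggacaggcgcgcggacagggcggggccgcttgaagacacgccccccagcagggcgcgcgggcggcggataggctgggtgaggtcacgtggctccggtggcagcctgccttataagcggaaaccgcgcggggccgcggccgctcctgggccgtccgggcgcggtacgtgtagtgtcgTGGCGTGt
Insig2 (chr1:121332590-121332839, minus strand): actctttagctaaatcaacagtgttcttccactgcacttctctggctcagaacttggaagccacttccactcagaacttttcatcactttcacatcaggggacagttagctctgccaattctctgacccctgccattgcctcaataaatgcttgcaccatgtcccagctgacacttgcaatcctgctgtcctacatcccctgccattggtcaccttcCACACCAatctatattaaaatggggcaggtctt
Srebf2 (chr15:82147019-82147268, plus strand): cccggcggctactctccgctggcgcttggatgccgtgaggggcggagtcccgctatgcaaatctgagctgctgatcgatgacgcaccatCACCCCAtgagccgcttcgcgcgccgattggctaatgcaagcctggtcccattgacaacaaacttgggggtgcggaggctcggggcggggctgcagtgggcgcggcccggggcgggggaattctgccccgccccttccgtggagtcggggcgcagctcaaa
Hmgcs1 (chr13:119690161-119690260, plus strand): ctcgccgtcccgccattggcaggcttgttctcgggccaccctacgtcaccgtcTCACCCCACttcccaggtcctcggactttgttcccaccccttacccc
All 5 runs read 5′ to 3′ on the gene's own strand. Windows of Fdps, Fdft1, Sqle, Stard4 and Soat2 were not used here.

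After APAP much of the pathway was called lower in wt liver at both times and in KO liver at 6 h, with fewer lower calls in KO liver at 2 h. Such counts do not test a difference between the genotypes, and the direct test at 2 h, given below, called 0 of 26 genes. At 2 h 10 of 26 genes were called lower and 4 higher in KO liver, against 20.8% and 10.6% of all tested genes called lower and higher there. In wt liver at 2 h 16 were called lower and 2 higher, against 6.17% and 6.53% of all tested genes. The lower calls shared by the genotypes at 2 h were 9, which is 90% of the KO list and 56.2% of the wt list. Over all tested genes the shared lower calls at 2 h were 26.1% of the KO calls and 87.8% of the wt calls, and the KO list was the longer one there. The sterol genes called in wt only were Mvd, Idi1, Lss, Cyp51, Msmo1, Insig1 and Stard4, and the one called in KO only was Aacs. At 6 h 20 genes were called lower in KO liver and 15 in wt liver, with 0 called higher in either. All tested genes were called lower at 6 h at a rate of 19.1% in KO and 22.0% in wt liver. Of the 17052 tested genes, 2700 in KO and 2807 in wt liver were called higher at 6 h. Of the 26 genes, 0 had a positive difference with an unadjusted p under 0.05 in limma at 6 h in KO or in wt liver. Over all tested genes that share was 20% in KO and 20.1% in wt liver. The 15 wt calls at 6 h were all among the 20 of KO liver, and KO liver added Mvd, Cyp51, Msmo1, Hsd17b7 and Srebf2. Over all tested genes 62% of the wt calls and 71.5% of the KO calls at 6 h were shared.

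The median log2 difference over the 26 genes was -0.27 in KO and -1.10 in wt liver at 2 h, and -1.31 in KO and -0.99 in wt liver at 6 h. Over all tested genes the medians lay between -0.06 and 0.02 in these comparisons. At 2 h 6 genes in KO and 13 in wt liver were called lower by at least 2-fold. At 6 h that number was 15 in KO and 11 in wt liver, and 5 and 3 of them were lower by at least 4-fold. Single arrays moved the 2 h counts. Lower calls in KO liver at 2 h numbered 3 without untreated replicate 2, 5 without 2 h replicate 2 and 7 without untreated replicate 1. In wt liver they numbered 8 without untreated replicate 2, 10 without 2 h replicate 1 and 9 without 2 h replicate 2. No left-out array moved a 6 h count by over 1.5 times.

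**Figure D1:**
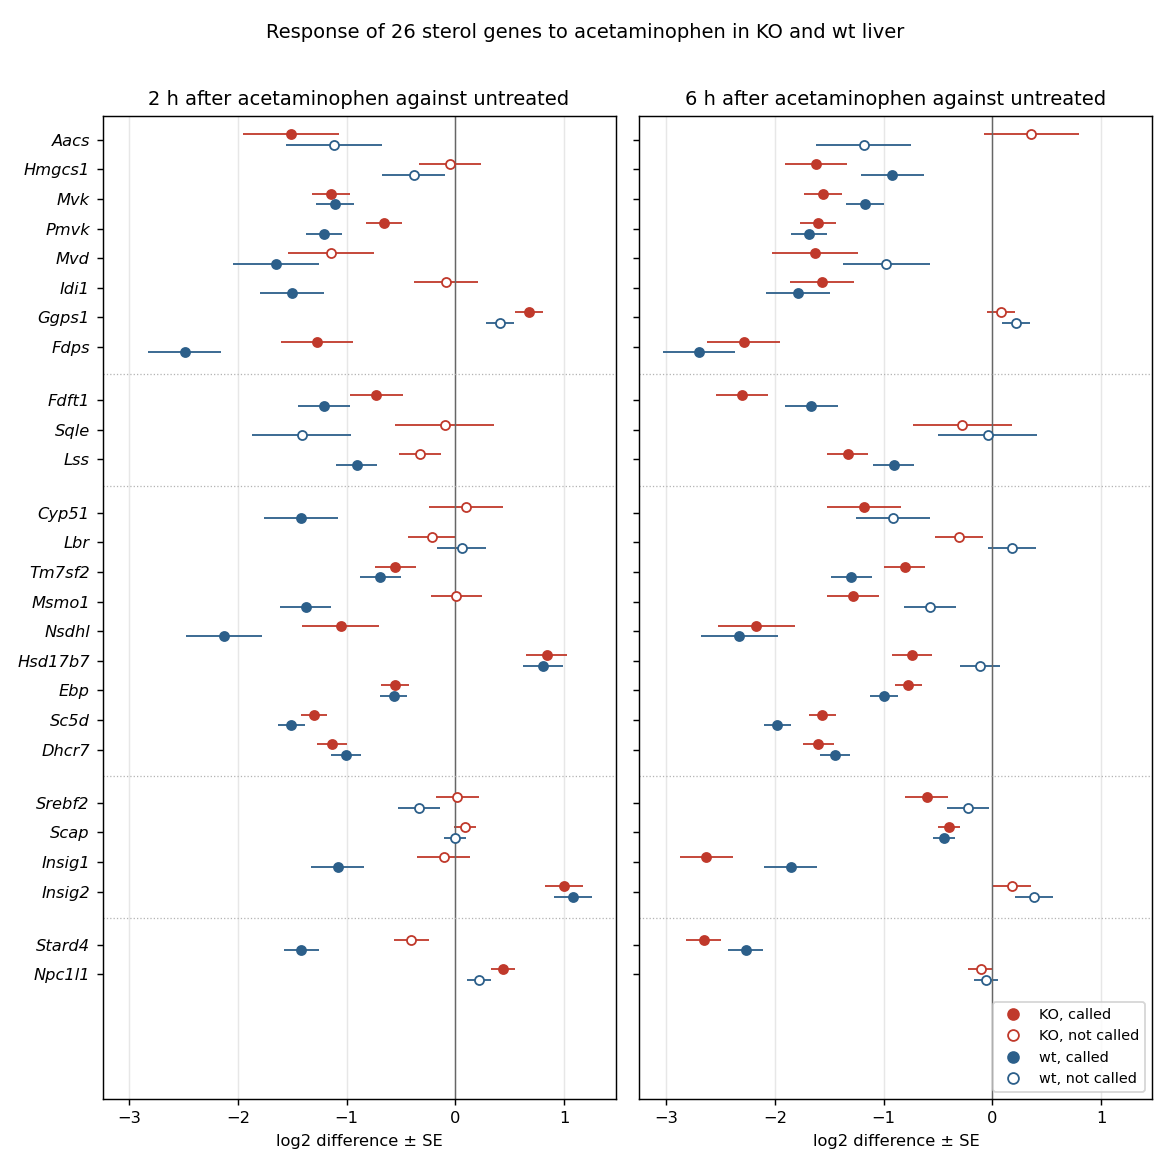
Log2 difference from untreated (horizontal axis, ± SE) of each of the 26 sterol genes at 2 h (left) and 6 h (right), with KO in one colour above wt in the other, filled where called and open where not. At 2 h 10 KO and 16 wt genes are filled left of 0. At 6 h 20 KO and 15 wt genes are, and 0 are filled right of 0.

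Of the 8 mevalonate and isoprenoid genes measured, 4 were called lower and 1 higher in KO and 5 lower in wt liver at 2 h, and 6 in KO and 5 in wt liver were called lower at 6 h. The shares of all tested genes called lower were 20.8% in KO and 6.17% in wt liver at 2 h, and 19.1% and 22.0% at 6 h. Called higher in KO liver at 2 h were 10.6% of all tested genes. Fdps, which makes farnesyl diphosphate, read 10.29 and 10.68 in KO liver untreated, 9.76 and 8.67 after 2 h and 8.17 and 8.23 after 6 h. Wt arrays read 10.44 and 10.43 untreated, 7.87 and 8.01 after 2 h and 7.30 and 8.18 after 6 h. Both treated groups lay below untreated at both times with no overlap, and the wt arrays at 2 h lay below both KO arrays. Fdps differed from untreated by -1.27 in KO (adjusted p = 0.0159) and -2.49 in wt (adjusted p = 0.00121) at 2 h, and by -2.29 in KO (adjusted p = 0.000533) and -2.70 in wt (adjusted p = 0.000174) at 6 h, each with an SE of 0.33. Fdps kept its call with 1 array left out in 10 of 12 cases for KO 2 h (lost without replicate 2 of untreated KO or replicate 2 of KO 2 h; -1.82 to -0.73, adjusted p up to 0.104). Fdps had the lowest difference of the 26 genes in wt liver, where the linear level was 5.63-fold lower at 2 h and 6.5-fold lower at 6 h. Mvk, mevalonate kinase, read 7.94 and 8.05 in KO liver untreated, 7.01 and 6.69 after 2 h and 6.44 and 6.42 after 6 h. Wt arrays read 7.68 and 7.90 untreated, 6.52 and 6.83 after 2 h and 6.38 and 6.85 after 6 h. All treated arrays lay below all untreated arrays, with the genotypes interleaved. Mvk differed from untreated by -1.14 in KO (adjusted p = 0.00132) and -1.11 in wt (adjusted p = 0.00281) at 2 h, and by -1.56 in KO (adjusted p = 0.00012) and -1.17 in wt (adjusted p = 0.000538) at 6 h, each with an SE of 0.17. Pmvk, the kinase of the following step, read 8.11 and 8.61 in KO liver untreated, 7.87 and 7.53 after 2 h and 6.71 and 6.80 after 6 h. Wt arrays read 8.38 and 8.32 untreated, 7.07 and 7.22 after 2 h and 6.63 and 6.71 after 6 h. The KO arrays at 2 h lay between the untreated and the wt 2 h values, and by 6 h the genotypes lay close together. Pmvk differed from untreated by -0.66 in KO (adjusted p = 0.0131) and -1.21 in wt (adjusted p = 0.00136) at 2 h, and by -1.61 in KO (adjusted p = 7.87e-05) and -1.69 in wt (adjusted p = 5.37e-05) at 6 h, each with an SE of 0.17. Pmvk kept its call with 1 array left out in 10 of 12 cases for KO 2 h (lost without replicate 2 of untreated KO or replicate 2 of KO 2 h; -0.91 to -0.41, adjusted p up to 0.109).

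Idi1 turns isopentenyl diphosphate into its reactive isomer, the starter unit of every longer isoprenoid. Idi1 read 10.30 and 11.06 in KO liver untreated, 10.91 and 10.28 after 2 h and 9.12 and 9.11 after 6 h. Wt arrays read 10.36 and 10.31 untreated, 8.74 and 8.92 after 2 h and 8.15 and 8.95 after 6 h. The KO arrays at 2 h lay close to the untreated KO arrays, while both wt arrays at 2 h lay well under theirs. Idi1 differed from untreated by -0.08 in KO (adjusted p = 0.855) and -1.51 in wt (adjusted p = 0.00874) at 2 h, and by -1.56 in KO (adjusted p = 0.00246) and -1.79 in wt (adjusted p = 0.000962) at 6 h, each with an SE of 0.29. Idi1 kept its call with 1 array left out in 10 of 12 cases for wt 2 h (lost without replicate 2 of untreated wt or replicate 1 of wt 2 h; -1.60 to -1.41, adjusted p up to 0.0724). A second probe set of Idi1 gave differences of -0.04 in KO and -1.44 in wt liver at 2 h, and -1.56 in KO and -1.77 in wt liver at 6 h. Aacs, which makes acetoacetyl-CoA from ketone bodies in the cytosol, read 9.28 and 9.33 in KO liver untreated, 8.65 and 6.94 after 2 h and 9.20 and 10.12 after 6 h. Wt arrays read 8.73 and 8.79 untreated, 7.61 and 7.67 after 2 h and 7.46 and 7.69 after 6 h. The KO arrays at 2 h differed most from each other, and those at 6 h lay near or above untreated KO, while all treated wt arrays lay below untreated wt. Aacs differed from untreated by -1.51 in KO (adjusted p = 0.025) and -1.12 in wt (adjusted p = 0.128) at 2 h, and by 0.36 in KO (adjusted p = 0.564) and -1.18 in wt (adjusted p = 0.0556) at 6 h, each with an SE of 0.44. Aacs kept its call with 1 array left out in 9 of 12 cases for KO 2 h (lost without either untreated KO array or replicate 2 of KO 2 h; -2.37 to -0.65, adjusted p up to 0.129). Ggps1, which draws isoprenoid units off into geranylgeranyl diphosphate, read 7.37 and 7.67 in KO liver untreated, 8.13 and 8.25 after 2 h and 7.56 and 7.63 after 6 h. Wt arrays read 7.63 and 7.44 untreated, 7.86 and 8.04 after 2 h and 7.78 and 7.73 after 6 h. The 2 h arrays were the highest in both genotypes and did not overlap with the untreated ones. Ggps1 differed from untreated by 0.67 in KO (adjusted p = 0.00355) and 0.41 in wt (adjusted p = 0.0604) at 2 h, and by 0.08 in KO (adjusted p = 0.677) and 0.22 in wt (adjusted p = 0.209) at 6 h, each with an SE of 0.13.

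The other measured genes of the group are the cytosolic HMG-CoA synthase Hmgcs1 and the decarboxylase Mvd, whose array values ran between 9.16 and 11.28 for Hmgcs1 and 5.23 and 7.85 for Mvd. Hmgcs1 fell at 6 h, with differences of -1.62 ± 0.29 (adjusted p = 0.00176) in KO and -0.92 ± 0.29 (adjusted p = 0.028) in wt liver, and at 2 h its difference was -0.05 in KO and -0.38 in wt liver, not called. Mvd was called lower in KO liver at 6 h, with a difference of -1.63 ± 0.40 (adjusted p = 0.00987), and in wt liver at 2 h, with one of -1.65 ± 0.40 (adjusted p = 0.0225). Its other differences were also negative but missed the call, at -1.15 in KO liver at 2 h (adjusted p = 0.0504) and -0.98 in wt liver at 6 h (adjusted p = 0.0776). Hmgcs1 kept its call with 1 array left out in 8 of 12 cases for wt 6 h (lost without either untreated wt array or either wt 6 h array; -0.94 to -0.90, adjusted p up to 0.109). Mvd kept its call with 1 array left out in 8 of 12 cases for wt 2 h (lost without either untreated wt array or either wt 2 h array; -1.91 to -1.39, adjusted p up to 0.16) and in 10 of 12 cases for KO 6 h (lost without replicate 2 of untreated KO or replicate 1 of KO 6 h; -1.84 to -1.42, adjusted p up to 0.0702).

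The squalene and lanosterol steps numbered 3 genes, of which 1 in KO and 2 in wt liver were called lower at 2 h, and 2 in each at 6 h. Lower calls over all tested genes were 20.8% in KO and 6.17% in wt liver at 2 h, and 19.1% and 22.0% at 6 h. With 3 genes a count says little about the step. Fdft1, squalene synthase, read 11.23 and 11.59 in KO liver untreated, 10.93 and 10.43 after 2 h and 9.22 and 8.99 after 6 h. Wt arrays read 11.13 and 11.37 untreated, 10.18 and 9.90 after 2 h and 9.24 and 9.93 after 6 h. Treated arrays lay below untreated ones without overlap in both genotypes, and KO liver at 6 h held the lowest values. Fdft1 differed from untreated by -0.73 in KO (adjusted p = 0.043) and -1.21 in wt (adjusted p = 0.00982) at 2 h, and by -2.30 in KO (adjusted p = 8.99e-05) and -1.66 in wt (adjusted p = 0.000459) at 6 h, each with an SE of 0.24. Fdft1 kept its call with 1 array left out in 5 of 12 cases for KO 2 h (kept only without replicate 1 of KO 2 h, either KO 6 h array or either wt 6 h array; -0.98 to -0.47, adjusted p up to 0.24) and in 10 of 12 cases for wt 2 h (lost without replicate 2 of untreated wt or replicate 2 of wt 2 h; -1.35 to -1.07, adjusted p up to 0.0811). Lss, which closes squalene epoxide into lanosterol, read 9.11 and 9.61 in KO liver untreated, 9.21 and 8.86 after 2 h and 8.06 and 8.0 after 6 h. Wt arrays read 9.05 and 9.25 untreated, 8.33 and 8.15 after 2 h and 8.05 and 8.43 after 6 h. In KO liver the 2 h arrays straddled the lower untreated array, and the 6 h arrays lay below both. Lss differed from untreated by -0.33 in KO (adjusted p = 0.213) and -0.91 in wt (adjusted p = 0.0118) at 2 h, and by -1.33 in KO (adjusted p = 0.000479) and -0.91 in wt (adjusted p = 0.00368) at 6 h, each with an SE of 0.19. Lss kept its call with 1 array left out in 10 of 12 cases for wt 2 h (lost without replicate 2 of untreated wt or replicate 2 of wt 2 h; -1.01 to -0.81, adjusted p up to 0.0948). Sqle, squalene epoxidase, was the 1 gene of the 3 called in no comparison with untreated. Its values ran from 7.04 to 10.20, and it differed by 1.53 between the untreated KO arrays. At 2 h its difference in limma was -0.10 in KO and -1.41 ± 0.46 (adjusted p = 0.06955) in wt liver. Both wt arrays of Sqle at 2 h lay below both untreated wt arrays.

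From lanosterol to cholesterol, 5 of 9 genes in KO and 7 in wt liver were called lower at 2 h, and 8 in KO and 5 in wt liver at 6 h. All tested genes were called lower at rates of 20.8% in KO and 6.17% in wt liver at 2 h, and 19.1% and 22.0% at 6 h. Sc5d, a sterol desaturase, read 11.80 and 11.84 in KO liver untreated, 10.40 and 10.63 after 2 h and 10.24 and 10.27 after 6 h. Wt arrays read 12.06 and 11.98 untreated, 10.62 and 10.40 after 2 h and 9.93 and 10.16 after 6 h. Treated arrays stood more than 1 unit below untreated ones in every group, and the genotypes lay close together. Sc5d differed from untreated by -1.30 in KO (adjusted p = 0.000147) and -1.51 in wt (adjusted p = 8.36e-05) at 2 h, and by -1.56 in KO (adjusted p = 1.83e-05) and -1.98 in wt (adjusted p = 5.35e-06) at 6 h, each with an SE of 0.12. Nsdhl, which takes part in removing the methyl groups of lanosterol, read 10.46 and 10.90 in KO liver untreated, 10.14 and 9.11 after 2 h and 8.48 and 8.53 after 6 h. Wt arrays read 10.39 and 10.55 untreated, 8.38 and 8.30 after 2 h and 7.62 and 8.67 after 6 h. The KO arrays at 2 h lay between the untreated arrays and the wt arrays at 2 h. Nsdhl differed from untreated by -1.06 in KO (adjusted p = 0.0432) and -2.13 in wt (adjusted p = 0.00361) at 2 h, and by -2.17 in KO (adjusted p = 0.00103) and -2.33 in wt (adjusted p = 0.00058) at 6 h, each with an SE of 0.35. Nsdhl kept its call with 1 array left out in 3 of 12 cases for KO 2 h (kept only without replicate 1 of KO 2 h or either wt 6 h array; -1.57 to -0.54, adjusted p up to 0.285). Dhcr7, the reductase of the last step of one branch, read 9.81 and 10.07 in KO liver untreated, 8.88 and 8.72 after 2 h and 8.16 and 8.52 after 6 h. Wt arrays read 9.61 and 9.78 untreated, 8.70 and 8.67 after 2 h and 8.20 and 8.29 after 6 h. Its arrays stepped down at 2 h and again at 6 h with no overlap between the times within a genotype. Dhcr7 differed from untreated by -1.14 in KO (adjusted p = 0.000536) and -1.0 in wt (adjusted p = 0.00152) at 2 h, and by -1.60 in KO (adjusted p = 3.36e-05) and -1.45 in wt (adjusted p = 4.98e-05) at 6 h, each with an SE of 0.14.

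Cyp51 and Msmo1 act early in this stretch, Cyp51 as the lanosterol demethylase and Msmo1 as the methylsterol oxidase. Cyp51 read 8.92 and 9.70 in KO liver untreated, 9.64 and 9.17 after 2 h and 8.47 and 7.79 after 6 h. Wt arrays read 9.10 and 9.02 untreated, 7.45 and 7.83 after 2 h and 7.69 and 8.59 after 6 h. At 2 h both KO arrays lay within the untreated KO range and both wt arrays lay below every untreated array. Cyp51 differed from untreated by 0.09 in KO (adjusted p = 0.858) and -1.42 in wt (adjusted p = 0.0219) at 2 h, and by -1.18 in KO (adjusted p = 0.0214) and -0.92 in wt (adjusted p = 0.0553) at 6 h, each with an SE of 0.34. Cyp51 kept its call with 1 array left out in 8 of 12 cases for wt 2 h (lost without either untreated wt array or either wt 2 h array; -1.60 to -1.23, adjusted p up to 0.15) and in 10 of 12 cases for KO 6 h (lost without replicate 2 of untreated KO or replicate 2 of KO 6 h; -1.57 to -0.79, adjusted p up to 0.168). Msmo1 read 10.45 and 10.97 in KO liver untreated, 10.93 and 10.51 after 2 h and 9.67 and 9.18 after 6 h. Wt arrays read 10.33 and 10.56 untreated, 9.0 and 9.13 after 2 h and 9.62 and 10.12 after 6 h. Its KO arrays at 2 h overlapped with untreated KO and lay above both wt arrays at 2 h, which were the lowest wt values of the gene. Msmo1 differed from untreated by 0.01 in KO (adjusted p = 0.98) and -1.38 in wt (adjusted p = 0.00453) at 2 h, and by -1.28 in KO (adjusted p = 0.00217) and -0.57 in wt (adjusted p = 0.0809) at 6 h, each with an SE of 0.24.

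Ebp and Tm7sf2, a sterol isomerase and a sterol reductase, were called lower in both genotypes at both times, with calls that rested on single arrays in part. Ebp read 10.79 and 10.98 in KO liver untreated, 10.39 and 10.27 after 2 h and 9.96 and 10.26 after 6 h. Wt arrays read 10.86 and 10.89 untreated, 10.36 and 10.25 after 2 h and 9.80 and 9.95 after 6 h. No treated array reached an untreated one. Ebp differed from untreated by -0.56 in KO (adjusted p = 0.00835) and -0.57 in wt (adjusted p = 0.0157) at 2 h, and by -0.77 in KO (adjusted p = 0.00109) and -1.0 in wt (adjusted p = 0.000201) at 6 h, each with an SE of 0.13. Ebp kept its call with 1 array left out in 11 of 12 cases for KO 2 h (lost without replicate 2 of untreated KO; -0.65 to -0.46, adjusted p up to 0.0713) and in 8 of 12 cases for wt 2 h (lost without either untreated wt array or either wt 2 h array; -0.63 to -0.51, adjusted p up to 0.102). Tm7sf2 read 10.27 and 10.83 in KO liver untreated, 9.80 and 10.19 after 2 h and 9.67 and 9.82 after 6 h. Wt arrays read 10.51 and 10.68 untreated, 10.0 and 9.82 after 2 h and 9.21 and 9.39 after 6 h. Its lowest values were those of wt liver at 6 h. Tm7sf2 differed from untreated by -0.55 in KO (adjusted p = 0.0463) and -0.69 in wt (adjusted p = 0.0384) at 2 h, and by -0.81 in KO (adjusted p = 0.00778) and -1.30 in wt (adjusted p = 0.000446) at 6 h, each with an SE of 0.19. Tm7sf2 kept its call with 1 array left out in 2 of 12 cases for KO 2 h (kept only without replicate 1 of untreated KO or replicate 2 of KO 2 h; -0.83 to -0.28, adjusted p up to 0.335), in 8 of 12 cases for wt 2 h (lost without either untreated wt array or either wt 2 h array; -0.78 to -0.60, adjusted p up to 0.203) and in 10 of 12 cases for KO 6 h (lost without replicate 2 of untreated KO or replicate 1 of KO 6 h; -1.09 to -0.53, adjusted p up to 0.0705). Hsd17b7, a ketosteroid reductase of the same stretch, went the other way at first and read 10.03 and 10.57 in KO liver untreated, 11.19 and 11.08 after 2 h and 9.74 and 9.37 after 6 h. Wt arrays read 9.92 and 10.05 untreated, 10.87 and 10.71 after 2 h and 10.0 and 9.74 after 6 h. Its 2 h arrays lay above every untreated array of their genotype, and the KO arrays at 6 h lay below. Hsd17b7 differed from untreated by 0.84 in KO (adjusted p = 0.00735) and 0.81 in wt (adjusted p = 0.0183) at 2 h, and by -0.74 in KO (adjusted p = 0.011) and -0.12 in wt (adjusted p = 0.656) at 6 h, each with an SE of 0.19. Hsd17b7 kept its call with 1 array left out in 11 of 12 cases for KO 2 h (lost without replicate 1 of untreated KO; 0.57 to 1.11, adjusted p up to 0.0576), in 8 of 12 cases for wt 2 h (lost without either untreated wt array or either wt 2 h array; 0.72 to 0.89, adjusted p up to 0.128) and in 10 of 12 cases for KO 6 h (lost without replicate 2 of untreated KO or replicate 2 of KO 6 h; -1.01 to -0.47, adjusted p up to 0.0985). Lbr, the lamin B receptor, which also has sterol reductase activity, was called in no comparison with untreated and ran between 7.70 and 8.42.

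The 4 genes of the control system did not move as 1 group. Insig1 read 11.90 and 12.02 in KO liver untreated, 12.10 and 11.61 after 2 h and 9.73 and 8.93 after 6 h. Wt arrays read 11.60 and 11.91 untreated, 10.76 and 10.58 after 2 h and 9.78 and 10.02 after 6 h. The KO arrays at 2 h spanned the untreated KO values, both wt arrays at 2 h lay below untreated wt, and the 6 h arrays were the lowest of each genotype. Insig1 differed from untreated by -0.11 in KO (adjusted p = 0.767) and -1.08 in wt (adjusted p = 0.0166) at 2 h, and by -2.63 in KO (adjusted p = 4.36e-05) and -1.85 in wt (adjusted p = 0.000252) at 6 h, each with an SE of 0.24, so its linear level at 6 h was 6.2-fold lower in KO and 3.61-fold lower in wt liver. Insig1 kept its call with 1 array left out in 9 of 12 cases for wt 2 h (lost without replicate 2 of untreated wt or either wt 2 h array; -1.24 to -0.93, adjusted p up to 0.125). Insig2 read 11.52 and 11.77 in KO liver untreated, 12.65 and 12.64 after 2 h and 11.68 and 11.96 after 6 h. Wt arrays read 11.86 and 11.62 untreated, 12.82 and 12.83 after 2 h and 12.39 and 11.86 after 6 h. Its 2 h arrays lay above all untreated arrays in both genotypes, and at 6 h 1 KO array lay within the untreated KO range and both wt arrays lay at or above the highest untreated wt array. Insig2 differed from untreated by 1.0 in KO (adjusted p = 0.00238) and 1.09 in wt (adjusted p = 0.0031) at 2 h, and by 0.18 in KO (adjusted p = 0.462) and 0.38 in wt (adjusted p = 0.108) at 6 h, each with an SE of 0.17. Both of its rises at 2 h kept their call with any 1 array left out, as did the falls of Insig1 at 6 h.

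Srebf2 read 9.0 and 9.39 in KO liver untreated, 9.51 and 8.90 after 2 h and 8.70 and 8.47 after 6 h. Wt arrays read 8.93 and 9.09 untreated, 8.68 and 8.67 after 2 h and 8.70 and 8.88 after 6 h. Untreated and treated KO arrays overlapped at 2 h and separated at 6 h, and all treated wt arrays lay below both untreated ones. Srebf2 differed from untreated by 0.02 in KO (adjusted p = 0.952) and -0.34 in wt (adjusted p = 0.304) at 2 h, and by -0.61 in KO (adjusted p = 0.0351) and -0.22 in wt (adjusted p = 0.401) at 6 h, each with an SE of 0.20. Srebf2 kept its call with 1 array left out in 7 of 12 cases for KO 6 h (lost without replicate 2 of untreated KO, either KO 6 h array or either wt 2 h array; -0.80 to -0.41, adjusted p up to 0.231). Scap read 10.23 and 10.14 in KO liver untreated, 10.17 and 10.38 after 2 h and 9.76 and 9.82 after 6 h. Wt arrays read 10.23 and 10.23 untreated, 10.20 and 10.26 after 2 h and 9.78 and 9.79 after 6 h. The 6 h arrays of both genotypes lay below all untreated and 2 h arrays. Scap differed from untreated by 0.09 in KO (adjusted p = 0.526) and 0.00 in wt (adjusted p = 0.995) at 2 h, and by -0.40 in KO (adjusted p = 0.0114) and -0.44 in wt (adjusted p = 0.00564) at 6 h, each with an SE of 0.10. Scap kept its call with 1 array left out in 10 of 12 cases for KO 6 h (lost without replicate 1 of untreated KO or replicate 1 of KO 6 h; -0.44 to -0.35, adjusted p up to 0.0745). A second, dim probe set of Scap, with a mean of 6.08, gave differences of 0.09 in KO and -0.25 in wt liver at 6 h, and averaging the probe sets of Scap ended the KO call, at -0.15 (adjusted p = 0.269).

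Stard4 carries cholesterol between membranes in the cytosol. Stard4 read 9.31 and 9.55 in KO liver untreated, 9.28 and 8.77 after 2 h and 6.79 and 6.76 after 6 h. Wt arrays read 9.32 and 9.40 untreated, 8.0 and 7.88 after 2 h and 6.98 and 7.19 after 6 h. The KO arrays at 2 h lay below the untreated KO arrays and above the wt arrays at 2 h, and by 6 h both genotypes stood under every 2 h array. Stard4 differed from untreated by -0.41 in KO (adjusted p = 0.0794) and -1.42 in wt (adjusted p = 0.000489) at 2 h, and by -2.66 in KO (adjusted p = 5.73e-06) and -2.27 in wt (adjusted p = 9.13e-06) at 6 h, each with an SE of 0.16. Its linear level at 6 h was 6.31-fold lower in KO and 4.83-fold lower in wt liver. Npc1l1, the transporter of cholesterol uptake known from the intestine, was dim and read 5.81 and 5.86 in KO liver untreated, 6.29 and 6.26 after 2 h and 5.80 and 5.66 after 6 h. Wt arrays read 5.76 and 5.92 untreated, 6.14 and 5.98 after 2 h and 5.69 and 5.87 after 6 h. The 2 h arrays lay above the untreated ones in both genotypes. Npc1l1 differed from untreated by 0.44 in KO (adjusted p = 0.0141) and 0.21 in wt (adjusted p = 0.248) at 2 h, and by -0.11 in KO (adjusted p = 0.492) and -0.06 in wt (adjusted p = 0.701) at 6 h, each with an SE of 0.11. Npc1l1 kept its call with 1 array left out in 9 of 12 cases for KO 2 h (lost without either untreated KO array or replicate 1 of KO 2 h; 0.41 to 0.46, adjusted p up to 0.0735).

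**Figure D2:**
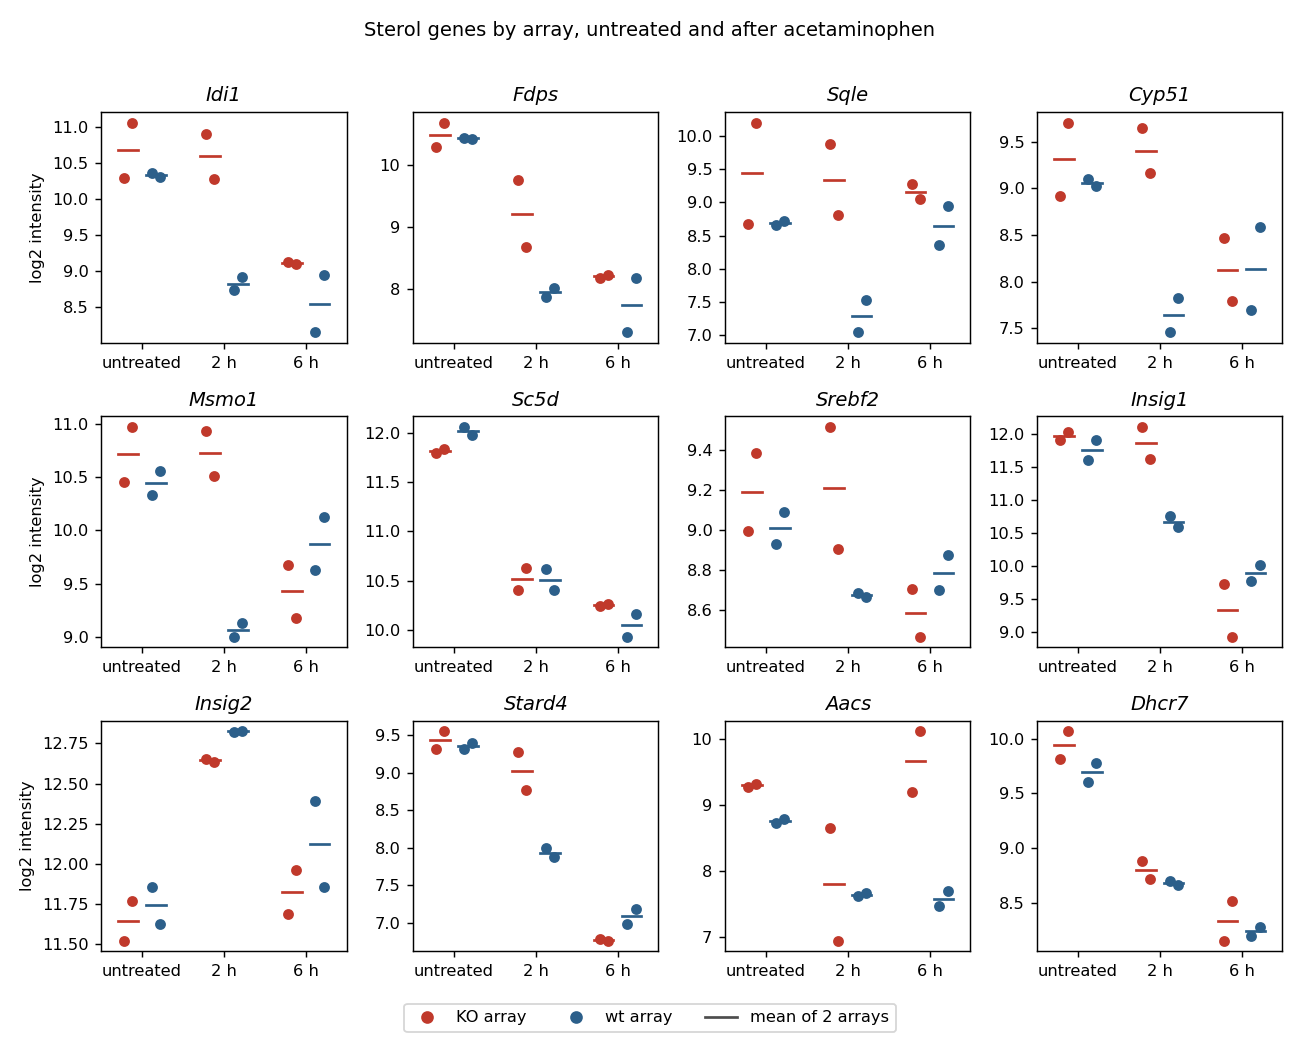
Log2 intensity (vertical axis) of 12 sterol genes on each array, untreated, at 2 h and at 6 h, with KO arrays left of wt arrays and a bar at the mean of 2 arrays. At 2 h the KO arrays of Idi1, Cyp51, Msmo1, Insig1 and Stard4, which were called, lie above the wt arrays. Those of Fdps, Sqle, Srebf2 and Dhcr7, which were not called, do so too. Insig2 peaks at 2 h in both genotypes.

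Between 2 h and 6 h more of the 26 genes fell than rose, in KO and in wt liver. Set against 2 h, the 6 h arrays had 18 of 26 genes called lower and 1 higher in KO liver, where 12.6% and 19.1% of all tested genes were called lower and higher. In wt liver 9 were called lower and 2 higher, with 16.8% and 10.9% of all tested genes called lower and higher. As the mean of both genotypes 16 were called lower and 1 higher, against 21.5% and 19.8% of all tested genes. The higher genes were Aacs in KO liver, at 1.87 ± 0.44 (adjusted p = 0.00925), and Sqle and Msmo1 in wt liver, at 1.37 ± 0.46 (adjusted p = 0.0469) and 0.81 ± 0.24 (adjusted p = 0.029). The medians over the 26 genes were -0.72 in KO and -0.28 in wt liver, while those over all tested genes were -0.01 in KO and -0.09 in wt liver. Without either wt array at 2 h the wt calls numbered 3 in all, and without either wt array at 6 h they numbered 5.

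KO and wt liver were then compared within each condition. In untreated liver 0 of the 26 genes were called in limma, and 0 had an unadjusted p under 0.05, with 0.00586% of all tested genes called in either direction. The median difference of the 26 genes was 0.19. At 2 h 5 genes were called higher in KO liver and 0 lower, against 0.411% of all tested genes called higher. These 5 were Idi1 at 1.77 ± 0.29 (adjusted p = 0.0265), Cyp51 at 1.77 ± 0.34 (adjusted p = 0.0354), Msmo1 at 1.65 ± 0.24 (adjusted p = 0.0163), Insig1 at 1.19 ± 0.24 (adjusted p = 0.0415) and Stard4 at 1.09 ± 0.16 (adjusted p = 0.0175). In linear terms KO liver at 2 h held 3.41 times the Idi1 level, 3.4 times the Cyp51 level, 3.14 times the Msmo1 level, 2.27 times the Insig1 level and 2.13 times the Stard4 level of wt liver. These genes stand at separate stages, an isoprenoid isomerase, a pair of enzymes of lanosterol demethylation, an INSIG and a sterol carrier.

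The difference at 2 h was positive in 24 of 26 genes. Its median over the 26 genes was 0.51, against -0.10 over all tested genes. In limma 13 genes had an unadjusted p under 0.05, all higher in KO liver, against 4.49% of all tested genes in that direction and 19.1% in the other. Sqle missed the call at 2.06 ± 0.46 (adjusted p = 0.05004) and Lss at 0.79 ± 0.19 (adjusted p = 0.058). The 5 calls rested on few arrays, since 0 of 26 remained called without KO replicate 1 at 2 h or without either wt array at 2 h, 3 were called without either untreated wt array, and 11 were called without KO replicate 2 at 2 h. The array median of the tested genes was also lowest in KO liver at 2 h, at 6.85 and 6.88, against 7.03 and 7.04 in wt liver at 2 h. Its part in the result was not tested, and quantile normalization, which evens the arrays out, also called 5 members higher and 0 lower, with Insig1 no longer among them (adjusted p = 0.055).

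At 6 h 1 gene, Aacs, was called higher in KO than in wt liver, at 2.09 ± 0.44 (adjusted p = 0.0205), and 0 lower (1 at an unadjusted p under 0.05 in limma), against 4.09% of all tested genes called higher. The median difference over the 26 genes at 6 h was -0.03, with 11 positive and 15 negative. The 95% interval of the difference at 6 h was -0.09 to 1.22 for Idi1 and -0.97 to 0.08 for Msmo1. Aacs was not called at 6 h without KO replicate 2 or without wt replicate 1. As the mean of the 3 conditions 25 of 26 genes had a positive difference. Of these Idi1 alone was called, at 0.89 ± 0.17 (adjusted p = 0.031), against 0.328% of all tested genes called higher, and 11 of the 26 had an unadjusted p under 0.05 in that direction, against 5.23% of all tested genes. Without KO replicate 2 at 2 h 7 were called in that mean, and without KO replicate 1 at 2 h 0 were.

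**Figure D3:**
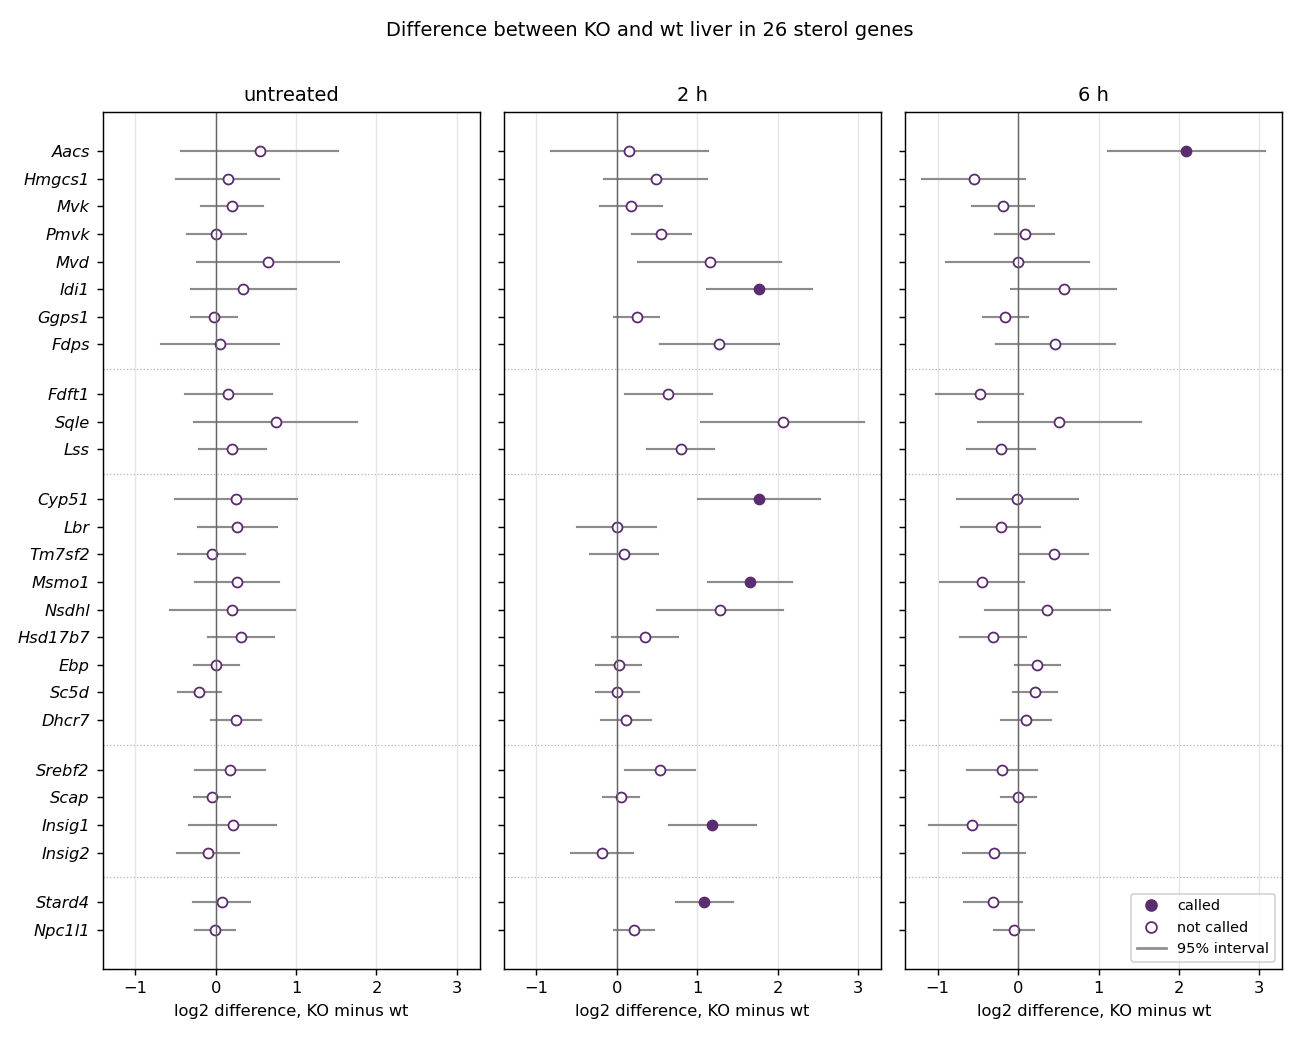
Log2 difference of KO minus wt liver (horizontal axis) for each of the 26 sterol genes, untreated, at 2 h and at 6 h, with 95% intervals and filled points where called. The 5 filled points at 2 h all lie right of 0, 0 points are filled in untreated liver, and Aacs is the filled point at 6 h.

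The change of the response with genotype was tested directly by subtracting the wt response from the KO response. At 2 h 0 of 26 genes were called in limma, with 0.0293% of all tested genes called. In 7 genes the unadjusted p was under 0.05, all with a positive difference, against 3.63% of all tested genes in that direction and 11.7% in the other. Stard4 had the smallest adjusted p, 0.164, with a difference between the responses of 1.01 (95% interval 0.51 to 1.52). At 6 h 0 were called in limma, with 0.487% of all tested genes called. There 4 of the 26 had an unadjusted p under 0.05, a share near the 16.2% of all tested genes. The differences at 2 h between KO and wt liver are therefore not shown to be larger than those in untreated liver at the threshold used.

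The step between 2 h and 6 h differed between the genotypes in 3 genes, Msmo1, Insig1 and Stard4, all called lower in KO, against 2.06% of all tested genes called lower. For Msmo1 the step was -1.29 ± 0.24 (adjusted p = 0.00261) in KO and 0.81 ± 0.24 (adjusted p = 0.029) in wt liver, which gave a difference of -2.10 ± 0.33 (adjusted p = 0.0148). For Insig1 it was -2.52 ± 0.24 (adjusted p = 0.000125) in KO and -0.77 ± 0.24 (adjusted p = 0.0384) in wt liver, which gave -1.75 ± 0.34 (adjusted p = 0.026). For Stard4 it was -2.25 ± 0.16 (adjusted p = 2.84e-05) in KO and -0.85 ± 0.16 (adjusted p = 0.00403) in wt liver, which gave -1.40 ± 0.23 (adjusted p = 0.0156). The wt step thus ran up for Msmo1 and down for Insig1 and Stard4, and the KO step ran down for all 3. In all, 12 of the 26 genes had an unadjusted p under 0.05 with a lower KO step and 1, Aacs, with a higher one, against 6.82% and 19% of all tested genes. The calls ended without either wt array at 2 h or without KO replicate 2 at 6 h, where 0 of 26 were called, while 6 were called without KO replicate 2 at 2 h and 5 without KO replicate 1 at 6 h.

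Genes around the pathway gave a frame for these values. Of all tested genes 20.8% in KO and 6.17% in wt liver were called lower at 2 h, and 19.1% and 22.0% at 6 h. At 2 h 10.6% in KO and 6.53% in wt liver were called higher. Of the machinery that senses sterols or processes SREBP, 9 of 11 listed genes were tested. In KO liver 2 were called lower and 2 higher at 2 h and 3 lower and 1 higher at 6 h, and in wt liver 1 lower and 2 higher at 2 h and 3 lower and 0 higher at 6 h. Srebf1, which encodes the lipogenic relative of SREBP2, fell each time and differed from untreated by -2.26 in KO (adjusted p = 4.55e-05) and -2.18 in wt (adjusted p = 7.51e-05) at 2 h, and by -2.43 in KO (adjusted p = 1.18e-05) and -2.19 in wt (adjusted p = 1.59e-05) at 6 h, each with an SE of 0.17. Paqr3, a Golgi protein known to anchor SCAP and SREBP there, rose at 2 h by 0.74 ± 0.14 (adjusted p = 0.00297) in KO and 1.26 ± 0.14 (adjusted p = 0.000377) in wt liver. Of 7 other genes known to respond to sterols, 4 were called lower at 2 h and 7 at 6 h, in KO and in wt liver alike in number. Acss2, the cytosolic acetyl-CoA synthetase, differed from untreated by -1.50 in KO (adjusted p = 0.000495) and -1.51 in wt (adjusted p = 0.000652) at 2 h, and by -2.63 in KO (adjusted p = 1.02e-05) and -2.39 in wt (adjusted p = 1.39e-05) at 6 h, each with an SE of 0.18. Between KO and wt liver at 2 h Acss2 differed by 0.01 ± 0.18 (adjusted p = 0.98) and the retinol dehydrogenase Rdh11 by -0.31 ± 0.14 (adjusted p = 0.223), neither called.

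Among 11 genes of fatty acid synthesis driven by SREBP1, 7 in KO and 7 in wt liver were called lower at 2 h, and 8 in KO and 10 in wt liver at 6 h, with 1 called higher, Me1 in KO liver at 6 h. Thrsp, a lipogenic regulator, differed from untreated by -3.15 in KO (adjusted p = 0.00167) and -3.15 in wt (adjusted p = 0.00321) at 2 h, and by -4.64 in KO (adjusted p = 0.000108) and -4.34 in wt (adjusted p = 0.000131) at 6 h, each with an SE of 0.51. Elovl6, a fatty acid elongase, was 1.94 ± 0.29 (adjusted p = 0.00617) higher in KO than in wt liver at 6 h. Scd1, the stearoyl-CoA desaturase, was the 1 gene of these neighbouring lists called between the genotypes at 2 h, at -0.65 ± 0.11 (adjusted p = 0.0276), and it was lower in KO liver. Bile acid synthesis, the route by which cholesterol is broken down, had 3 of 10 genes called lower and 1 higher in KO and in wt liver at 2 h, and 6 in KO and 7 in wt liver called lower at 6 h. Cyp7a1, its first enzyme, differed from untreated by -1.81 in KO (adjusted p = 0.0219) and -0.74 in wt (adjusted p = 0.389) at 2 h, and by -2.82 in KO (adjusted p = 0.00196) and -2.43 in wt (adjusted p = 0.00385) at 6 h, each with an SE of 0.51. Of 11 genes of sterol export, the LXR receptors and lysosomal handling, 3 in KO and 0 in wt liver were called lower at 2 h. At 6 h 5 in KO and 7 in wt liver were called lower. More of all tested genes were also called lower in KO than in wt liver at 2 h, 20.8% against 6.17%. Npc1, which releases cholesterol from lysosomes, was called higher each time, at 0.75 ± 0.15 (adjusted p = 0.00418) in KO and 0.58 ± 0.15 (adjusted p = 0.027) in wt liver at 2 h. Of 9 genes that use isoprenoids for other ends, 6 in KO and 0 in wt liver were called lower at 2 h, and 2 in each at 6 h, while Rabggtb, a subunit of the enzyme that prenylates Rab proteins, was higher throughout, at 0.99 ± 0.14 (adjusted p = 0.000485) in KO and 1.15 ± 0.14 (adjusted p = 0.000177) in wt liver at 6 h.

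**Figure D4:**
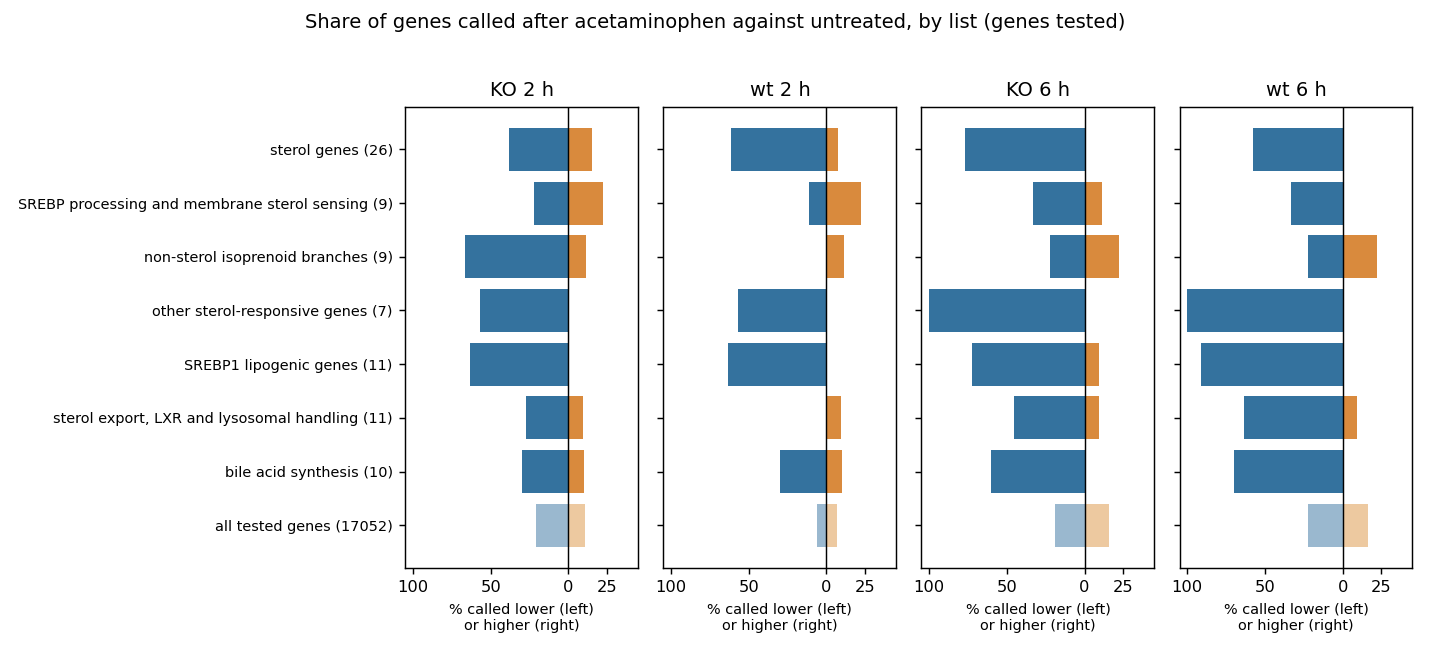
Share of tested genes (horizontal axis, percent) called lower (bars to the left) or higher (bars to the right) than untreated, for the 26 sterol genes, 6 neighbouring gene lists and all 17052 tested genes, in KO and wt liver at 2 h and at 6 h. At 2 h the bar of lower sterol genes stands for 10 of 26 in KO and 16 of 26 in wt liver.

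Markers of other liver cells moved beside these changes. At 6 h the 5 neutrophil markers averaged 6.35 and 6.09 in KO and 8.64 and 7.97 in wt liver, against 5.87 and 5.98 in untreated KO and 5.98 and 5.92 in untreated wt liver, and 0 of 5 in KO and 4 of 5 in wt liver were called higher. The 6 Kupffer cell and macrophage markers averaged 7.83 and 7.68 in KO and 8.09 and 7.91 in wt liver at 2 h, where 1 of 6 was called lower between the genotypes. Of the 7 hepatocyte markers 0 were called between the genotypes at 2 h, and their median difference was -0.07. At 2 h, when 5 sterol genes were higher in KO liver, the neutrophil markers averaged 5.99 and 6.55 in KO and 6.27 and 6.18 in wt liver. Of the 2 lymphocyte markers tested 1 was called lower in KO than in wt liver at 2 h. The erythroid marker Alas2 read 8.37 and 8.70 in KO and 9.40 and 9.86 in wt liver, not called. Between KO and wt liver at 2 h, 272 of all 17052 tested genes were called lower and 70 higher. All 5 stellate cell and fibroblast markers and all 5 sinusoidal endothelium markers had negative differences at 2 h, with 0 called. The stellate markers averaged 8.39 and 8.48 in KO and 8.81 and 8.67 in wt liver, and the endothelial markers 9.05 and 9.35 in KO and 9.64 and 9.39 in wt liver. At 6 h 4 of 5 neutrophil, 2 of 4 bile duct, 1 of 5 endothelial and 1 of 7 hepatocyte markers were called lower in KO than in wt liver, as was Alas2, and 1 of 6 Kupffer cell markers was called higher. Of all 17052 tested genes 840 were called lower and 698 higher in that comparison. The hepatocyte marker was Tat, which had the lowest difference of its list, -0.74. The part of other cell types in the sterol values was not tested.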

How the data were processed

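Per the submitters' processing notes, the authors ran RMA and Affymetrix Expression Console, with no version named. The deposited intensities are on a linear scale and were turned into log2 here, with nothing added. Each sample's title gave its group, except that a source name gave it for 1 wt array at 2 h. No array was left out. Of 35556 probe sets, 21218 carried 1 gene symbol and stood for 18820 genes. For each gene the brightest such probe set was used, and 17052 genes with a mean log2 of at least 5 were tested. The number of arrays limits the precision. The model of 6 group means over 12 arrays used lmFit and eBayes of limma 3.58.1, with no trend, under R 4.3.3, and had 6 residual and 4.33 prior degrees of freedom. Two-sided p-values were adjusted by the Benjamini-Hochberg method over all tested genes in each of 14 comparisons, and errors after ± are standard errors of the fit. All 26 members are named by the rule, in the order of their roles. Values of all 12 arrays are given for 22 of them, those among the 10 smallest p-values of a response, called between genotypes, or regulators. The members and gene lists were chosen with earlier results of these data known. Symbols came from the platform's annotation and promoter sequence from RefSeq (GRCm38.p6). Some genes of the pathway are not reported here. The fit was tested on simulated data. The alternatives are given with their effect in the closing section. Replicate numbers were not taken as pairs, since their deviations correlated weakly between groups. That check cannot show that the samples were unpaired.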

Additional observations from a re-analysis of the deposited data

Results flagged for a closer look

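In 3 genes the step between 2 h and 6 h differed between the genotypes, as tested by an interaction term in limma over all 17052 genes. Msmo1 had a KO step minus wt step of -2.10 ± 0.33 (adjusted p = 0.0148), and its KO arrays fell between the times while its wt arrays rose. Insig1 had -1.75 ± 0.34 (adjusted p = 0.026), with a larger fall in KO than in wt liver. Stard4 had -1.40 ± 0.23 (adjusted p = 0.0156), again with the larger fall in KO liver. Each rests on 2 arrays a group, and over the alternatives run the adjusted p ranged from 0.00683 to 0.0730 for Msmo1, from 0.00386 to 0.112 for Insig1 and from 0.00864 to 0.0798 for Stard4.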

How the results depend on the processing

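Of 124 calls of single sterol genes, 0 reversed under any alternative run. With no filter 122 of 124 were called again, with quantile normalization 119, with probe sets averaged per gene 122, with a variance trend 124, with log2 of the value plus 16 123, with a mean log2 of at least 7 all 119 of the genes kept, and with the compared groups alone 107 of 123. Counts moved as follows. KO against wt at 2 h gave 3 calls with the compared groups alone, against 5. The interaction of the step gave 5 with a mean log2 of at least 7, 5 with a trend, 5 with the value plus 16 and 1 with the compared groups alone, against 3. Leaving out 1 array gave 6 to 14 calls in KO and 9 to 19 in wt liver at 2 h, 15 to 20 in KO and 14 to 18 in wt liver at 6 h, 14 to 19 in KO and 3 to 12 in wt liver for 6 h against 2 h, and 13 to 19 for its mean. For KO against wt it gave 0 to 0 in untreated liver, 0 to 11 at 2 h, 0 to 2 at 6 h and 0 to 7 as the mean. The interactions gave 0 to 1 at 2 h, 0 to 0 at 6 h and 0 to 6 for the step. Where a left-out array leaves 1 in its group, that array is assumed to vary like the others. Beyond the smaller samples of these alternatives the cause was not tested. The mean of conditions has no fit of compared groups alone, since it uses all arrays.

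Replicate numbers of 15 pairs of groups correlated in their deviations at -0.134 to 0.185, with 4 over 0.1, so they were not taken as pairs. With the replicate number as a block, KO against wt at 2 h gave 6 calls and the step 3. The responses gave 12 in KO and 18 in wt liver at 2 h, and 20 in KO and 15 in wt liver at 6 h. The block left 119 of 124 single calls.

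Quantile normalization changed the share of all calls that were higher to 54.3% for KO against wt at 2 h, against 20.5%, to 47% for KO at 2 h, against 33.9%, to 42.8% for the step, against 70.7%, to 35.8% for the mean of conditions, against 18.4%, and to 27.3% for the interaction at 2 h, against 40%. The all-gene median of no comparison moved by over 0.1.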
